A study of Arabidopsis thaliana with 24 samples.

Results

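The comparison described here is that of ahk3/ore12 leaves with Col leaves after 3 days of dark treatment (3 DAT), across all 32627 genes of the deposited table. It rests on 4 of the series' 24 arrays, which were chosen by their sample titles: ahk3/ore12 replicates 1 and 2, and Col replicates 1 and 2. ahk3/ore12 is the Arabidopsis mutant ore12-1, a single line that carries a gain-of-function allele of AHK3 and responds to cytokinin constitutively. Col is the wild type Columbia-0. In both, leaves at 12 d after emergence were detached from plants aged 21 d and floated on 3 mM MES buffer in darkness, with no hormone added. The other arrays of the series hold both genotypes at 0, 1 and 2 DAT and the ethylene-insensitive mutant ein2/ore3 at all 4 times, and they served to estimate the spread between replicates and for the comparisons named below.

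Cytokinin is sensed by histidine kinases of the AHK family, which pass phosphate through AHP proteins to response regulators in the nucleus. Type-B response regulators are transcription factors that switch on cytokinin-responsive genes, among them the type-A response regulators, which in turn damp the signal. In leaves cytokinin is best known for delaying senescence, the programme in which chlorophyll and chloroplast proteins are broken down and nitrogen is sent to other organs. Darkness imposed on detached leaves starts this programme quickly.

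All values are log2 intensities after the authors' normalization, and a difference of 1 is a doubling. With a false discovery rate (FDR) under 0.05 in limma, 7544 genes (23.1%) differed between ahk3/ore12 and Col at 3 DAT, of which 4815 (14.8% of all genes) were higher and 2729 (8.36%) were lower in ahk3/ore12. Of these, 1712 (5.25% of all genes) were higher and 711 (2.18%) were lower by at least 1. The difference was at least 2 for 263 higher and 156 lower genes. For each of the 7544 genes, both ahk3/ore12 arrays lay on the same side of both Col arrays, while over all genes, called or not, both lay above in 29.2% and below in 39.6%. The total fell to 4120 genes without Col replicate 1 and to 4766 genes without ahk3/ore12 replicate 2. The 12 arrays of a replicate number share a slide, so each slide holds both genotypes. With the slide as a block 9112 genes differed. That all 7544 genes had the same sign within each slide follows from their arrays not overlapping, so it is no separate check. The median difference over all genes was -0.10. When every array was centred on its median it was -0.16, and 4165 genes were higher and 3631 lower, so that 53.4% of the calls were higher against 63.8% as deposited.

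**Figure D1:**
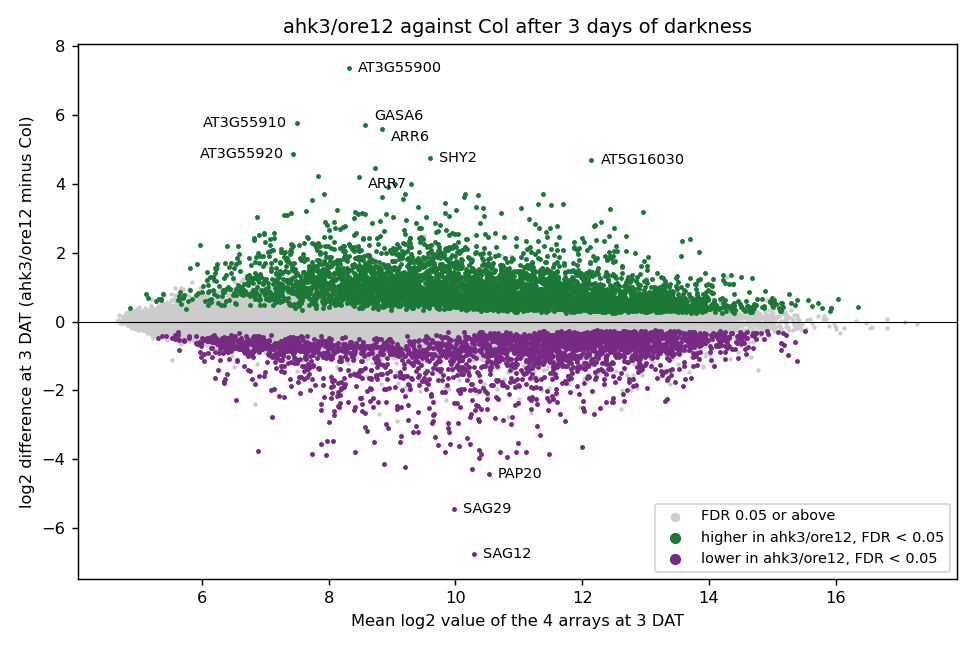
Difference between ahk3/ore12 and Col at 3 DAT (log2, y axis) against the mean log2 value of the 4 arrays (x axis), with one point per gene. Coloured points passed FDR < 0.05 (4815 higher in green, 2729 lower in purple), and the named genes lie farthest from 0, from 7.36 for AT3G55900 to -6.77 for SAG12.

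The 4 arrays were alike in scale. Their medians lay between 9.02 and 9.12, and their lowest gene values between 4.59 and 4.62, so that a gene near 4.6 is at the bottom of the scale and its difference from a brighter array is a lower bound. Replicates correlated across genes with r = 0.992 in ahk3/ore12 and 0.993 in Col, and differed by a median of 0.18 and 0.17. RNA came from whole leaves, so a changed share of cells and a changed level per cell cannot be told apart. The AHK3 transcript itself (AT1G27320) was at 13.12 and 12.91 in ahk3/ore12, against 13.14 and 13.09 in Col, a difference of -0.10 ± 0.11 (SE; adjusted p = 0.548). The allele acts through the receptor protein, so the level of its transcript does not check the labels. RBCS1A, a defining transcript of green leaf tissue, was above 14 on all 4 arrays. ACT2, a common control gene, differed by 0.15 ± 0.09 (adjusted p = 0.266).

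Before darkness the genotypes were close. At 0 DAT, 546 genes had an unadjusted limma p under 0.05, which is fewer than a share of 0.05 of all genes. The same FDR threshold was passed by 8 genes (0.0245%). Without Col 0 DAT replicate 2 the number was 15. The count was 206 (0.631%) at 1 DAT and 3918 (12.0%) at 2 DAT. In the test of the change itself, 4340 genes (13.3%) changed differently in ahk3/ore12 and in Col between 0 and 3 DAT, with 3249 of them (9.96% of all genes) higher and 1091 (3.34%) lower in ahk3/ore12. With the slide as a block this number was 5972. Leaving out Col replicate 1 of 0 DAT reduced the 4340 to 2307, leaving out that of 3 DAT to 2413, and leaving out ahk3/ore12 replicate 2 of 3 DAT to 2723.

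The ahk3/ore12 arrays of 3 DAT were also set against earlier times of Col, in comparisons added after the result at 3 DAT had been seen. They differed from Col at 0 DAT in 11222 genes (34.4%), at 1 DAT in 2990 genes (9.16%) and at 2 DAT in 3245 genes (9.95%). The fewest genes thus separated ahk3/ore12 at 3 DAT from Col at 1 and 2 DAT, and all 4 comparisons share the ahk3/ore12 arrays.

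Type-A response regulators, the direct readout of cytokinin signalling, stood out most clearly among the pathway genes: 7 of 10 were higher in ahk3/ore12 and none was lower, with a median difference of 2.48. ARR6 was at 11.90 and 11.36 in ahk3/ore12, against 6.10 and 5.98 in Col, which is a difference of 5.59 ± 0.29 (SE, n = 2 arrays each; adjusted p = 2.68e-08), or 48.2-fold. ARR7 was at 10.76 and 10.40 in ahk3/ore12 and at 6.41 and 6.34 in Col, a difference of 4.21 ± 0.20 (adjusted p = 1.94e-08). ARR5 reached 11.61 and 10.97 in ahk3/ore12, against 7.39 and 7.21 in Col (3.99 ± 0.27, adjusted p = 3.11e-07). In each of these genes the replicates of a genotype lay within 0.64 of each other, far less than the gap between genotypes. ARR4 was higher by 3.00 ± 0.29, ARR15 by 2.5 ± 0.35, ARR9 by 2.45 ± 0.26 and ARR8 by 1.17 ± 0.20 (adjusted p from 5.15e-06 to 6.16e-04).

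The remaining type-A members did not pass. ARR16 was at 12.32 and 11.88 in ahk3/ore12, against 12.00 and 12.11 in Col (0.04 ± 0.41, adjusted p = 0.946). ARR17 had 9.01 and 9.35 in ahk3/ore12, against 8.84 and 9.67 in Col (adjusted p = 0.878), and both genes overlapped between the genotypes. ARR3 was at 7.54 and 8.13 in ahk3/ore12 and at 6.91 and 7 in Col, without overlap but without passing the test (adjusted p = 0.119). It did pass with the replicate number as a block (0.00419) and in a fit of these 4 arrays alone (0.0494). None of the 10 genes differed at 0 DAT, where the list median was 0.11. From 0 to 3 DAT the list median changed by 0.00 in ahk3/ore12 and by -3.07 in Col, and for 7 of the 10 genes this change differed between the genotypes.

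**Figure D2:**
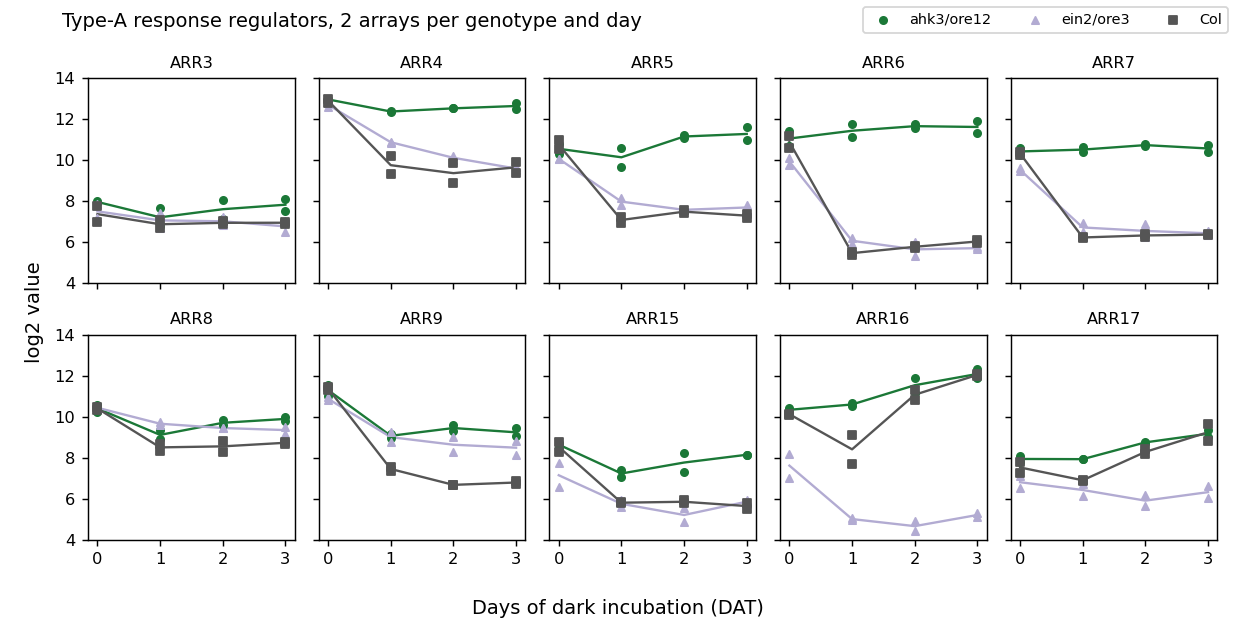
log2 value of the 10 type-A response regulators (y axis) at 0 to 3 DAT (x axis), with one point per array, lines through the means of 2 arrays, ahk3/ore12 in green, ein2/ore3 in light purple and Col in grey. At 3 DAT, ARR4, ARR5, ARR6 and ARR7 of ahk3/ore12 lie above both other genotypes, while ARR16 and ARR17 were alike in ahk3/ore12 and Col at 3 DAT.

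Set against ein2/ore3 at 3 DAT, where 3374 genes (10.3%) differed and 1782 (5.46%) were higher and 1592 (4.88%) lower in ahk3/ore12, 7 of the 10 type-A genes were also higher, although not the same 7. ARR6 was at 5.67 and 5.76 in ein2/ore3, lower than in ahk3/ore12 by an amount close to its gap from Col (5.92, adjusted p = 2.56e-08). ARR16 was at 5.32 and 5.11 in ein2/ore3, so that ahk3/ore12 exceeded it by 6.88 (adjusted p = 1.68e-07) while matching Col to within the replicate spread. ARR8 and ARR9, in contrast, did not pass against ein2/ore3 (adjusted p = 0.104 and 0.0932).

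Upstream of these genes, 2 of 9 receptors and phosphotransfer proteins (22.2%) were higher and 1 (11.1%) was lower. These shares are near the 14.8% and 8.36% over all genes, so the genes are described singly. Of 9 receptors and phosphotransfer proteins, the receptor AHK4 was higher in ahk3/ore12, at 10.64 and 10.63, against 8.47 and 8.49 in Col (2.15 ± 0.23, adjusted p = 1.38e-05), and it was higher than in ein2/ore3 by 2.17. AHK2 differed by -0.06 (adjusted p = 0.743). The phosphotransfer proteins AHP5 (0.34) and AHP2 (-0.30) passed the threshold narrowly. AHP1 (0.76), AHP3 (0.51), AHP4 (0.34) and AHP6 (-0.225) did not pass, although AHP1 and AHP3 differed by more than AHP5. AHP5 lost its call without Col replicate 1 (adjusted p = 0.29) or without either ahk3/ore12 array (0.188 and 0.0502), and AHP2 without any 1 of the 4 arrays (from 0.0886 to 0.157).

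Of 11 type-B response regulators, 1 (9.09%) was higher and 2 (18.2%) were lower, against 14.8% and 8.36% over all genes. ARR14 was higher in ahk3/ore12 at 9.01 and 9.04, against 7.10 and 7.39 in Col (1.78 ± 0.19, adjusted p = 1.45e-05). ARR2, which acts downstream of AHK3 in leaf senescence, was lower at 12.93 and 12.90 in ahk3/ore12, against 13.91 and 13.92 in Col (adjusted p = 7.85e-06). ARR21 was lower by 0.77 with an adjusted p of 0.0469, which rose above the threshold without any 1 of the 4 arrays (from 0.0667 to 0.279). ARR1, ARR10 and ARR12, the main type-B regulators of most tissues, differed by -0.04, -0.06 and 0.19 and did not pass.

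Of 25 cytokinin metabolism genes, 5 (20%) were higher and 5 (20%) lower, against 14.8% and 8.36% over all genes. The higher share is thus near that of all genes, and the genes below are described singly. CKX1, an oxidase that degrades cytokinin, was at 12.66 and 13.05 in ahk3/ore12, against 10.43 and 10.38 in Col (2.45 ± 0.18, adjusted p = 4.78e-07). UGT76C2, which inactivates cytokinin by N-glucosylation, was at 11.14 and 10.43 in ahk3/ore12, against 8.18 and 7.97 in Col (2.71 ± 0.32, adjusted p = 3.32e-05). LOG1 and LOG8, which release the active free base, were lower by 1.91 ± 0.15 and 0.96 ± 0.20. The remaining calls were UGT76C1, IPT3 and CKX4 (higher) and CKX2, UGT85A1 and CKX7 (lower), all with adjusted p above that of LOG8. CKX2, another oxidase, spread widely at 8.54 and 7.17 in ahk3/ore12, against 11.32 and 10.48 in Col. These calls were less firm, since 3 higher genes were called whichever of the 4 arrays was left out, and between 2 lower genes (without Col replicate 1) and 4 (without ahk3/ore12 replicate 2), with 3 without Col replicate 2 or ahk3/ore12 replicate 1.

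Among 10 cytokinin response factors and other known response genes, 5 (50%) were higher and none lower, against 14.8% and 8.36% over all genes. CGA1, a GATA factor of chloroplast development, was at 12.47 and 12.02 in ahk3/ore12, against 10.44 and 10.42 in Col (1.81 ± 0.21, adjusted p = 2.27e-05). CRF5 was higher by 1.97 ± 0.29, CRF6 by 1.68 ± 0.26, and the expansin EXPA1 by 1.28 ± 0.24. For CRF6 the change over time differed too (adjusted p = 0.00704). At 0 DAT it was at 8.95 and 8.66 in ahk3/ore12, against 9.34 and 8.32 in Col, and at 3 DAT at 12.42 and 12.36 in ahk3/ore12, against 10.72 and 10.71 in Col.

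Genes outside the cytokinin lists were among the highest differences. GASA6, a member of a gibberellin-regulated peptide family, was at 11.34 and 11.51 in ahk3/ore12 and near the low end in Col at 5.86 and 5.58 (5.71 ± 0.26, adjusted p = 1.68e-08). It began at 13.97 and 13.64 in ahk3/ore12 and at 14.02 and 13.76 in Col before darkness, so that the level fell in both genotypes but much less in ahk3/ore12. In ein2/ore3 it was higher still, by 2.41, at 13.92 and 13.75.

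SHY2/IAA3, a repressor of auxin signalling, was at 11.74 and 12.22 in ahk3/ore12, against 7.07 and 7.37 in Col (4.76 ± 0.30, adjusted p = 1.25e-07). BEE1, a bHLH factor induced by brassinosteroid, was at 9.72 and 10.16 in ahk3/ore12, against 5.73 and 5.70 in Col (4.22 ± 0.35). Another 3 leading genes have no symbol in the reference table: AT5G16030 (4.69 ± 0.33), AT5G11420 (4.47 ± 0.19) and AT5G62280 (4.00 ± 0.39). Of the 12 highest genes, 11 also passed in the test of the change from 0 to 3 DAT, the exception being AT3G55920. Against ein2/ore3, 8 of the 12 were higher in ahk3/ore12, while GASA6 and AT5G11420 were lower, and SHY2 and AT5G16030 did not pass (adjusted p = 0.405 and 0.0686).

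Most nuclear genes for photosynthesis were higher in ahk3/ore12, those of chlorophyll synthesis less uniformly than those of the antenna and photosystems. Of 21 light harvesting antenna genes, 16 were higher and 1 was lower, with a median difference of 1.31. Of 30 photosystem and Rubisco genes with their GLK regulators, 27 were higher and none lower (median 0.89). Of 28 genes of chlorophyll and tetrapyrrole synthesis, 15 were higher and 2 lower (median 0.44). The shares called higher in these lists were 76.2%, 90% and 53.6%, against 14.8% over all genes. Without any 1 array the higher counts stayed at 13 or above, 23 or above and 12 or above, so no array decided them.

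In the antenna, LHCB5, a minor antenna protein of photosystem II, was at 13.43 and 13.82 in ahk3/ore12, against 11.36 and 11.50 in Col (2.19 ± 0.20, adjusted p = 3.03e-06). LHCB6 was higher by 1.31 ± 0.12, LHCB1.5 by 2.09 ± 0.18 and LHCB1.3 by 1.42 ± 0.14. LHCA5, a minor antenna protein of photosystem I, went the other way at 12.34 and 11.82 in ahk3/ore12, against 13.34 and 13.13 in Col (-1.16 ± 0.20, adjusted p = 7.18e-04). Probes of the LHCB1, LHCB2 and RBCS copies may share transcripts of near-identical genes, so members of these families are not independent.

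Among the photosystem genes, PSBP-1 of the oxygen-evolving complex was at 14.10 and 14.23 in ahk3/ore12, against 12.77 and 12.90 in Col (1.33 ± 0.13, adjusted p = 6.26e-06). PSAH-1 and PSAH2 of photosystem I were higher by 1.29 ± 0.15 and 1.41 ± 0.17. RBCS1A, a small subunit of Rubisco, was at 15.26 and 15.34 in ahk3/ore12, against 14.05 and 14.04 in Col (1.25 ± 0.12). NPQ4, PSAD-2 and RBCS2B were the members that did not pass.

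In chlorophyll synthesis the genes with the smallest adjusted p belong to the magnesium branch. GUN4, which activates magnesium chelatase, was at 12.34 and 12.72 in ahk3/ore12, against 10.46 and 10.71 in Col (1.95 ± 0.20, adjusted p = 1.07e-05). CRD1, CHLM and PORC were higher by 1.9 ± 0.18, 1.4 ± 0.14 and 1.75 ± 0.19. The 2 lower genes were FC1, a ferrochelatase of the heme branch (-0.62), and PPO1 (-0.34). Of these, 1 was called without Col replicate 1 and none without ahk3/ore12 replicate 1. Of the early steps, HEMA1 (0.58) and GSA2 (0.80) were higher, while GSA1, HEMC and HEMD did not pass. PPO2 (0.47) and FC2, the other ferrochelatase (0.42), were higher as well.

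Both genotypes had less of these transcripts at 3 DAT than before darkness. From 0 to 3 DAT the antenna median changed by -1.72 in ahk3/ore12 and by -3.22 in Col, and the photosystem median by -1.43 in ahk3/ore12 and by -2.31 in Col. The change differed between the genotypes for 14 antenna genes upward and 1 downward, and for 22 photosystem genes upward. At 0 DAT the medians of both lists were within 0.03 of 0. Against ein2/ore3 at 3 DAT, none of the 21 antenna genes was higher in ahk3/ore12 and 2 were lower, while 7 of the 10 type-A regulators were higher.

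**Figure D3:**
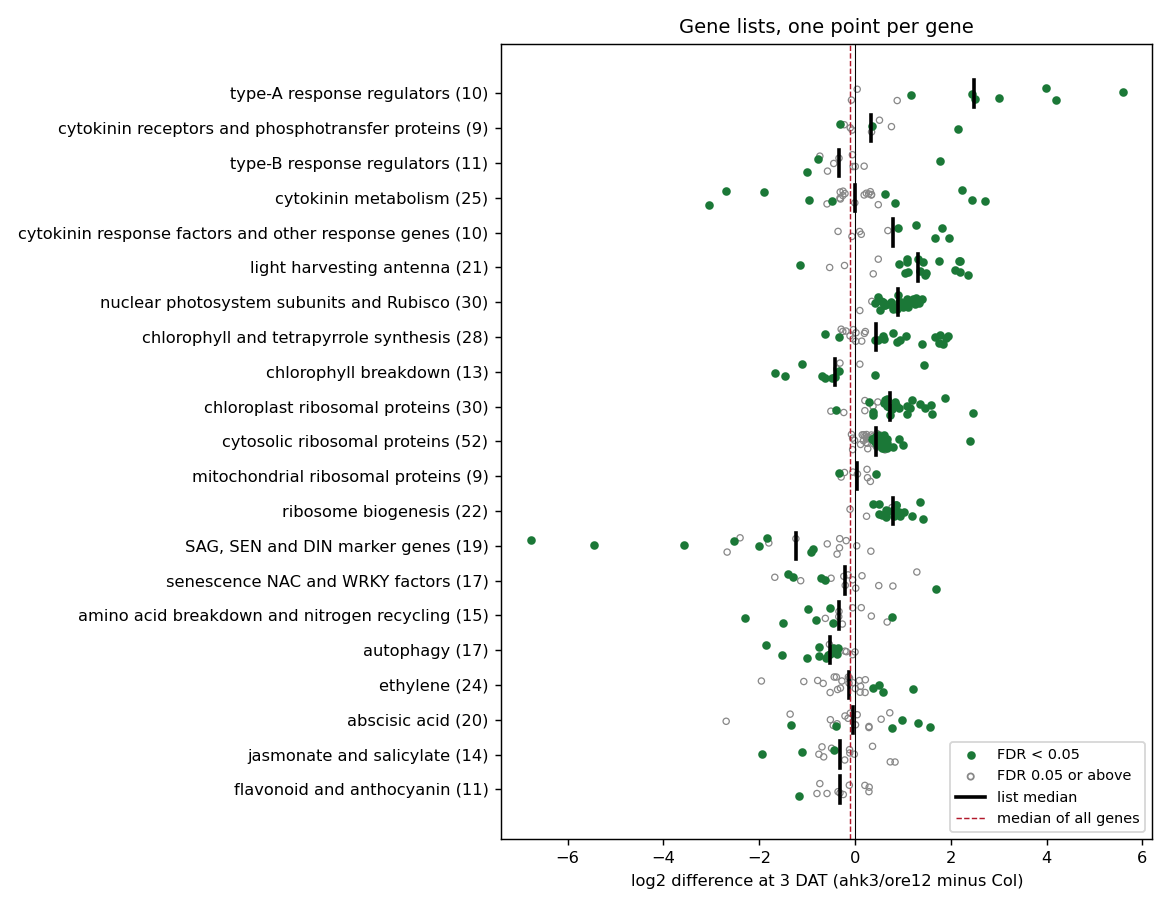
Difference between ahk3/ore12 and Col at 3 DAT (log2, x axis) for each gene of 21 lists, with the number of genes in brackets, filled points for FDR < 0.05, black bars for list medians and a dashed line for the median of all genes (-0.10). Type-A regulators, antenna and photosystem genes lie to the right with medians of 2.48, 1.31 and 0.89, and marker genes of senescence to the left with a median of -1.24.

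Genes for ribosomal proteins were higher as well for 2 of the 3 kinds of ribosome. Of 30 nuclear genes for chloroplast ribosomal proteins, 23 (76.7%) were higher and 1 (3.33%) lower (median 0.73), against 14.8% and 8.36% over all genes. RPL4 of the chloroplast large subunit was at 12.71 and 12.64 in ahk3/ore12, against 10.20 and 10.24 in Col (2.46 ± 0.18, adjusted p = 5.98e-07). AT4G17560, also a chloroplast ribosomal protein gene, was higher by 1.59 ± 0.12, RPL15 by 1.45 ± 0.13 and RPL12-C by 1.36 ± 0.12. Of 52 cytosolic ribosomal protein genes, 23 (44.2%) were higher and none lower (median 0.44). Examples were 0.66 ± 0.10 for RPS5A, 0.60 ± 0.11 for RPS3C and 0.60 ± 0.11 for RPS18C. The highest difference of this list was 2.4, for RPL16A. Of 9 mitochondrial ones, 1 was higher (mtRPS29, 0.44) and 1 lower (mtRPS31, -0.34), and both calls were lost without some arrays: mtRPS29 without Col replicate 1 or ahk3/ore12 replicate 2 (adjusted p = 0.128 and 0.0938), mtRPS31 without any 1 of the 4 (from 0.0815 to 0.175).

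Genes that build ribosomes followed, with 19 of 22 (86.4%) higher and none lower (median 0.79), against 14.8% and 8.36% over all genes. TOZ, which acts in pre-rRNA processing, was at 11.94 and 12.28 in ahk3/ore12, against 10.44 and 10.93 in Col (1.43 ± 0.19, adjusted p = 7.52e-05). SWA2 was higher by 1.36 ± 0.17, the nuclear exonuclease XRN2 by 1.01 ± 0.15, and PES, a pescadillo homologue, by 0.92 ± 0.13. Here both genotypes gained transcript in darkness: the median changed by 1.57 in ahk3/ore12 and by 0.64 in Col between 0 and 3 DAT. The cytosolic ribosomal protein median changed by 0.78 in ahk3/ore12 and by 0.34 in Col, while that of the chloroplast list changed by -1.46 in ahk3/ore12 and by -2.34 in Col. The counts depend on Col replicate 1: without it, 10 biogenesis genes and 8 cytosolic ribosomal protein genes were called. Of the cytosolic genes, 15 were called without ahk3/ore12 replicate 1 and 12 without ahk3/ore12 replicate 2. Against ein2/ore3, 40 of the 52 cytosolic ribosomal protein genes and 10 of the 22 biogenesis genes were higher in ahk3/ore12, and none lower.

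The 12 lowest differences were those of genes whose level in Col was higher at 3 DAT than at 0 DAT, by 4.29 (AT2G45040) to 8.46 (SAG12), all past the threshold. SAG12, a cysteine protease and the classic marker of leaf senescence, was at 8.37 and 5.43 in ahk3/ore12, against 13.62 and 13.72 in Col (-6.77 ± 0.65, adjusted p = 5.27e-06). SAG29/SWEET15, a sugar transporter, was at 9.13 and 5.37 in ahk3/ore12, against 13.17 and 12.23 in Col (-5.45 ± 1.05, adjusted p = 0.00159). At 0 DAT both were near the bottom of the scale, SAG12 at 5.36 and 5.27 in ahk3/ore12 and at 5.35 and 5.06 in Col.

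PAP20, a purple acid phosphatase, was at 9.09 and 7.53 in ahk3/ore12, against 12.82 and 12.68 in Col (-4.44 ± 0.40). CYP76G1, a cytochrome P450, was at 8.74 and 8.04 in ahk3/ore12, against 12.54 and 12.19 in Col (-3.98 ± 0.27). The differences were -3.85 ± 0.75 for CSLG2, a cellulose synthase-like gene, -3.88 ± 0.74 for AtS40-3 and -3.84 ± 0.32 for AT2G45040. The other 5 genes of the lowest 12, which have no symbol in the reference table, were AT3G61930 (-4.29), AT4G18425 (-4.24), AT5G46960 (-4.14), AT5G55410 (-3.92) and AT3G05400 (-3.85).

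In all 12 of these genes ahk3/ore12 replicate 1 was above replicate 2, by 2.94 for SAG12 and 3.76 for SAG29/SWEET15. That no ahk3/ore12 array reached a Col array follows from their selection for non-overlapping arrays. Of the 711 genes lower by at least 1, replicate 1 was above replicate 2 in 577 in ahk3/ore12 and in 512 in Col. Of the 1712 genes higher by at least 1, replicate 1 was above replicate 2 in 669 in ahk3/ore12 and in 620 in Col. The part of this offset in the differences was not tested. Without ahk3/ore12 replicate 2 the difference of SAG12 was -5.30 and that of SAG29/SWEET15 was -3.57, and without replicate 1 they were -8.24 and -7.33. AT3G61930 lost its call without Col replicate 1 (adjusted p = 0.0591) or ahk3/ore12 replicate 2 (0.107), and its difference became -3.04 without that ahk3/ore12 array. Against ein2/ore3 none of the 12 was lower in ahk3/ore12, and PAP20 and AT5G55410 were higher, by 1.68 and 1.61.

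**Figure D4:**
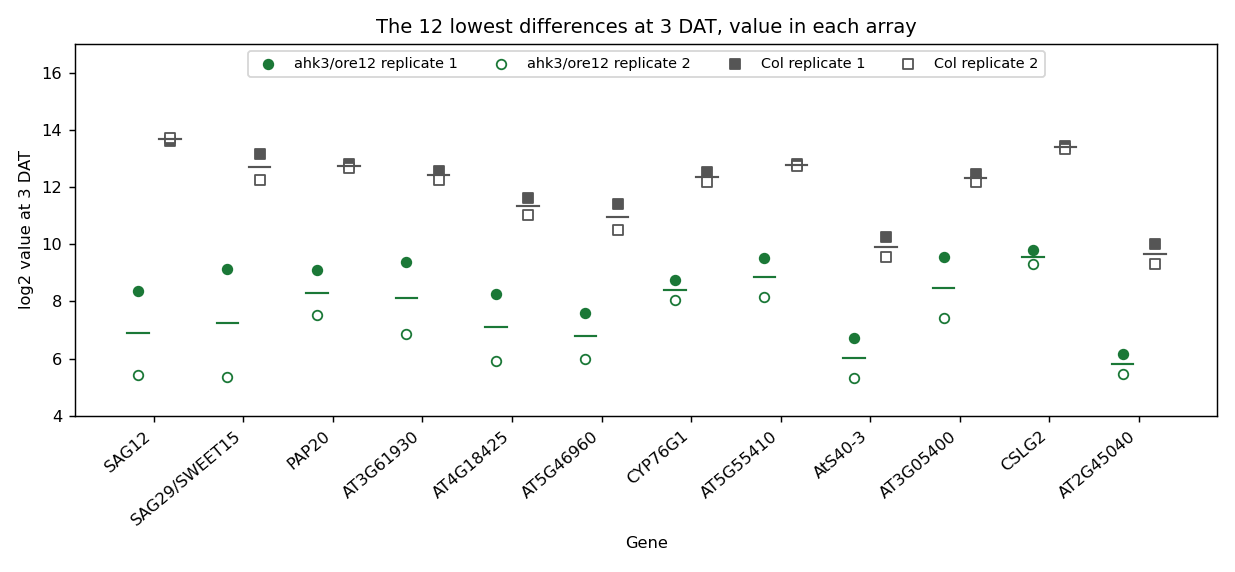
log2 value at 3 DAT (y axis) of the 12 genes with the lowest differences (x axis) in each array, ahk3/ore12 as green circles left of Col as grey squares, filled for replicate 1 and open for replicate 2, with bars at the means. Every ahk3/ore12 circle lies below both Col squares of its gene, which the selection for non-overlapping arrays required. Replicate 1 lies above replicate 2 in ahk3/ore12 for all 12.

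Among markers of senescence and of dark or sugar starvation, 8 of 19 SAG, SEN and DIN genes (42.1%) were lower and none was higher. Over all genes 8.36% were lower and 14.8% higher, and the list median was -1.24. BFN1, a nuclease of senescing tissue, was at 9.17 and 7.11 in ahk3/ore12, against 11.98 and 11.42 in Col (-3.56 ± 0.50, adjusted p = 1.31e-04). SAG113, a protein phosphatase of abscisic acid signalling, was at 10.47 and 10.40 in ahk3/ore12, against 12.55 and 12.34 in Col (-2.01 ± 0.33). Between ahk3/ore12 and ein2/ore3, SAG113 was lower in ahk3/ore12 (-2.48, adjusted p = 2.13e-04), whereas SAG14, SAG20 and SAG21 were higher (1.96, 0.76 and 1.46), and the list median was 0.76. The list count was 5 without Col replicate 1, without Col replicate 2 or without ahk3/ore12 replicate 2. SEN1, in contrast, was high in both genotypes, at 16.10 and 15.70 in ahk3/ore12 and at 16.31 and 16.13 in Col (adjusted p = 0.307). Over the list, the change from 0 to 3 DAT had a median of 1.62 in ahk3/ore12 and 3.66 in Col.

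Most transcriptional regulators of senescence were not called. Of 17 NAC and WRKY factors, 4 (23.5%) were lower and 1 (5.88%) was higher, with a median of -0.20. Over all genes 8.36% were lower and 14.8% higher. The higher factor was WRKY70, a repressor of senescence, at 11.21 and 11.52 in ahk3/ore12, against 9.90 and 9.44 in Col (adjusted p = 0.00267). NAC019 was lower at 11.62 and 11.47 in ahk3/ore12, against 13.04 and 12.84 in Col (-1.4 ± 0.31, adjusted p = 0.00422). RD26 and NAP, activators of senescence, were lower, with differences of -0.70 and -0.63. RD26 lost its call without Col replicate 1 or ahk3/ore12 replicate 1 (adjusted p = 0.0732 and 0.0903) and NAP without any 1 of the 4 arrays (from 0.0745 to 0.22). The count of lower factors was accordingly 1 or 2 with an array left out (1 without replicate 1 of either genotype, 2 without replicate 2 of either). NAC6/ORE1, a central activator of leaf senescence, had 13.16 and 12.98 in ahk3/ore12, against 13.22 and 13.21 in Col (adjusted p = 0.744).

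Of 13 chlorophyll breakdown genes, 8 (61.5%) were lower and 2 (15.4%) higher (median -0.42), against 8.36% and 14.8% over all genes. NYE1, which removes magnesium from chlorophyll a, was at 12.99 and 12.64 in ahk3/ore12, against 14.03 and 13.83 in Col (-1.11 ± 0.15, adjusted p = 8.58e-05). MES16, which acts on chlorophyll breakdown products, differed by -1.67 ± 0.27, NOL by -0.69 ± 0.14 and TIC55 by -0.62 ± 0.10. The 2 higher genes were CLH2, a chlorophyllase (1.45), and HCAR (0.41). Without Col replicate 1 or ahk3/ore12 replicate 2, 5 genes were called lower, and the higher calls fell to 1 without ahk3/ore12 replicate 2 and to 0 without any 1 of the other 3 arrays.

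Autophagy, which delivers cell contents to the vacuole, had 11 of 17 genes (64.7%) lower and none higher (median -0.53). Over all genes 8.36% were lower and 14.8% higher. ATG7, the enzyme that activates ATG8, was at 12.08 and 11.67 in ahk3/ore12, against 13.83 and 13.64 in Col (-1.86 ± 0.22, adjusted p = 3.29e-05). ATG8H differed by -1.52 ± 0.24, ATG9 by -0.99 ± 0.14 and ATG8D by -0.60 ± 0.09. In 7 of the 17 genes the change from 0 to 3 DAT was smaller in ahk3/ore12 than in Col by the interaction test. The count was 6 without Col replicate 1 or without ahk3/ore12 replicate 2.

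Of 15 nitrogen recycling genes, 6 (40%) were lower and 1 (6.67%) was higher, against 8.36% and 14.8% over all genes. NRT1.7, a phloem nitrate transporter that moves nitrate out of old leaves, was at 10.98 and 10.76 in ahk3/ore12, against 13.13 and 13.21 in Col (-2.30 ± 0.21, adjusted p = 3.06e-06). The cytosolic glutamine synthetases GLN1.4 and GLN1.1 were lower, with differences of -1.5 ± 0.28 and -0.81 ± 0.13, and the glutamate dehydrogenase GDH1 was higher by 0.77 ± 0.17. NRT1.7 was already at 11.11 and 11.38 in ahk3/ore12, against 12.70 and 12.39 in Col, at 0 DAT, a difference of -1.3 that did not pass (adjusted p = 0.0655). The lower count was 3 without Col replicate 1 or ahk3/ore12 replicate 2.

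Genes of other hormones are read against the shares over all genes of 14.8% higher and 8.36% lower. Of 24 ethylene genes, 4 (16.7%) were higher and none lower. ACS8, an ACC synthase, was at 10.12 and 10.49 in ahk3/ore12, against 9.15 and 9.05 in Col (1.21 ± 0.21, adjusted p = 7.07e-04), and EIL1 was higher by 0.50 ± 0.10. ERS1 (0.38) and ACO1 (0.58) lost their calls when arrays were left out. For both this held without Col replicate 1 (adjusted p = 0.247 and 0.129) and without ahk3/ore12 replicate 1 (0.0951 and 0.166), for ERS1 also without ahk3/ore12 replicate 2 (0.12), and for ACO1 also without Col replicate 2 (0.0587). With replicate 1 of either genotype left out, 2 ethylene genes were called.

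Of 20 abscisic acid genes, 4 (20%) were higher and 2 (10%) lower. The biosynthetic oxidase AAO3 was lower at 9.72 and 9.52 in ahk3/ore12, against 10.95 in both Col arrays (-1.33 ± 0.20, adjusted p = 2.17e-04). The stress gene RD29A (1.3 ± 0.23), the factor ABF3 (0.77 ± 0.15) and the biosynthetic gene NCED3 (0.98 ± 0.24) were higher. NCED3 lost its call without replicate 2 of Col or of ahk3/ore12 (adjusted p = 0.0591 and 0.0781), and 2 higher genes were then called. Of the lower genes 1 was called without Col replicate 1 or ahk3/ore12 replicate 2, while 4 were called after quantile normalization or centring of each array on its median. Between ahk3/ore12 and ein2/ore3, NCED3 differed by -2.54 (adjusted p = 8.24e-06).

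Of 14 jasmonate and salicylate genes, 3 (21.4%) were lower and none higher. JAZ10, a repressor of jasmonate signalling, was at 9.25 and 9.40 in ahk3/ore12, against 11.30 and 11.24 in Col (-1.95 ± 0.45, adjusted p = 0.00527). JAZ1 (-1.11) lost its call without Col replicate 1 or ahk3/ore12 replicate 2 (adjusted p = 0.148 and 0.129). AOS (-0.43) lost it without Col replicate 1 or either ahk3/ore12 array (0.316, 0.0901 and 0.145). Of 11 flavonoid genes only the regulator PAP2 was called, lower by 1.18, and not without Col replicate 1, Col replicate 2 or ahk3/ore12 replicate 2 (0.131, 0.0522 and 0.152).

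Of the markers of other tissues, 2 of 3 for phloem were higher (66.7%, against 14.8% over all genes), and those of the other tissues were not called. With 23.1% of all genes called, none among 4 markers says little. None of 4 guard cell, 4 epidermis and trichome or 4 root markers passed, and the list medians were 0.07, -0.18 and -0.24. The root marker PIN2 was near the bottom of the scale in all 4 arrays (5.12 and 5.55 in ahk3/ore12, 5.46 and 5.28 in Col). Of 3 phloem markers, SUC2, the sucrose loader of companion cells, was at 13.54 and 13.38 in ahk3/ore12, against 12.19 and 12.04 in Col (1.34 ± 0.24, adjusted p = 9.19e-04). SULTR2.1 was higher by 0.50 but lost its call without any 1 of the 4 arrays (adjusted p from 0.0533 to 0.277), and APL differed by 0.03. SUC2 differed by -0.09 at 0 DAT, and its part in the other differences was not tested.

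A small set of genes differed before darkness as well. The 8 genes called at 0 DAT were all called at 3 DAT with the same sign and a difference of at least 1. Among them were AT3G55890, AT3G55910 and AT3G55920, which are neighbours on chromosome 3 together with AT3G55900, the highest difference of all. AT3G55900 was at 11.96 and 12.03 in ahk3/ore12, against 4.63 in both Col arrays (7.36 ± 0.68, adjusted p = 4.03e-06), and AT3G55910 at 10.47 and 10.29 in ahk3/ore12, against 4.59 and 4.62 in Col (5.78 ± 0.31). With Col at the bottom of the scale these are lower bounds.

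AT3G55920 was at 9.74 and 10 in ahk3/ore12, against 5.05 and 4.97 in Col (4.86 ± 0.22), and it differed by 5.47 at 0 DAT (adjusted p = 7.06e-09), with Col close to the bottom of the scale here too. AT3G55890 ran the other way, at 10.51 and 10.21 in ahk3/ore12, against 11.99 and 11.98 in Col (-1.62 ± 0.24), and at 5.92 and 5.95 in ahk3/ore12, against 8.73 and 9.09 in Col, before darkness. AT3G55900 and AT3G55910 increased over 3 d in ahk3/ore12 and not in Col (interaction 3.85 and 3.65). The outer neighbour AT3G55930 differed by 0.02 and -0.57 was measured for AT3G55870, neither past the threshold, while SUE4 (AT3G55880) was lower in ahk3/ore12 (-1.41) at 3 DAT and differed by 0.01 at 0 DAT.

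One array departed from this order: Col 2 DAT replicate 2 had 8.12 for AT3G55900, against 4.67 in replicate 1, and 5.68 against 4.58 for AT3G55910. It is not among the 4 arrays compared here, but it enters the spread of AT3G55900, whose difference at 0 DAT (8.45 and 8.16 in ahk3/ore12, 4.84 and 4.74 in Col) had an adjusted p of 0.315. In ein2/ore3 at 3 DAT, AT3G55900, AT3G55910 and AT3G55920 were at Col levels.

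**Figure D5:**
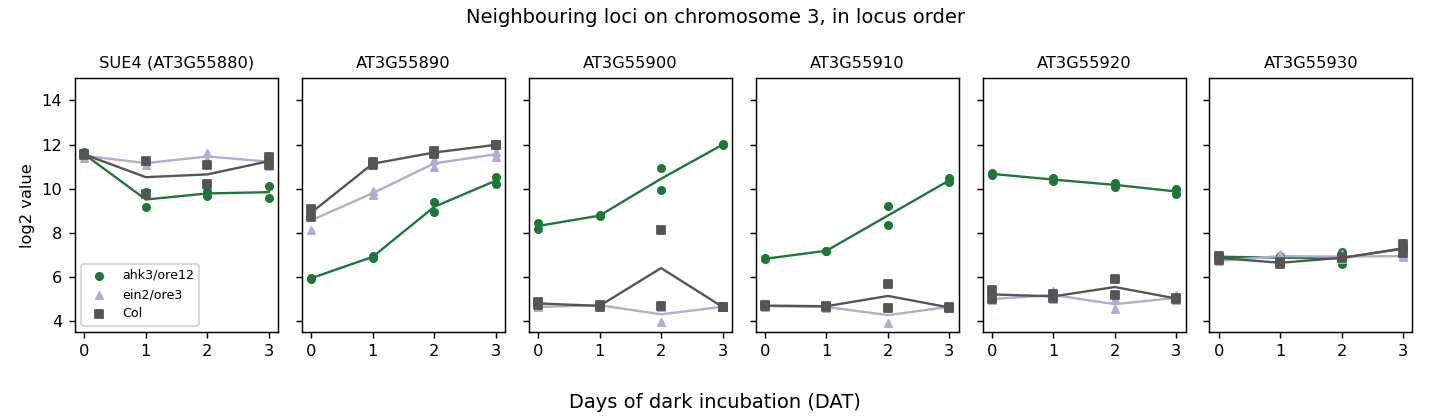
log2 value (y axis) of 6 neighbouring loci on chromosome 3 at 0 to 3 DAT (x axis), with one point per array and lines through the means, ahk3/ore12 in green, ein2/ore3 in light purple and Col in grey. AT3G55900, AT3G55910 and AT3G55920 lie above Col in ahk3/ore12 from 0 DAT on, AT3G55890 lies below, and AT3G55930 does not differ by more than the replicates do.

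The other 5 genes with a difference at both times lie apart from one another. PAI1 and PAI2, which encode phosphoribosylanthranilate isomerase of tryptophan synthesis, were higher in ahk3/ore12 by 2.40 ± 0.12 and 2.38 ± 0.13 at 3 DAT and by 1.21 and 1.32 at 0 DAT. PAI1 was at 14.93 and 14.89 in ahk3/ore12, against 12.36 and 12.65 in Col. As near-identical copies they can bind the same probes, so their values may not be separate. AT3G05170 was higher by 1.74 (2.2 at 0 DAT), and lower were AT1G75210 (-1.91, and -2.35 at 0 DAT) and AT3G28899 (-3.60, and -2.58 at 0 DAT). AT3G28899 was at 8.16 and 8.34 in ahk3/ore12, against 11.89 and 11.82 in Col, and at 8.19 and 8.71 in ein2/ore3, so that for this gene Col stood apart from both mutants.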

How the data were processed

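RNA from 2 replicates of each of 12 groups (3 genotypes at 0, 1, 2 and 3 DAT) was hybridized by the authors to one-colour NimbleGen arrays, and the methods call the replicates biological. In the deposited tables the intensity of a transcript variant is an RMA value (background-corrected, quantile-normalized, summarized over 1 to 4 probes). The authors then added up the variants of each gene and deposited the log2 of the sum with 2 decimals, which differs from the recomputed sums by at most 0.00514. These log2 values were used without a filter or further normalization. Depth does not apply to arrays, whose number sets the precision.

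Differences were tested in R 4.3.3 with limma 3.58.1 on 12 group means over 24 arrays (12 residual degrees of freedom), with Benjamini-Hochberg adjustment over 32627 genes. Standard errors are those of the moderated fit. The procedure was tested on simulated data. The alternatives were another summary of variants, other normalizations, a filter on dim genes, the replicate number as a block, fits of fewer arrays, a mean-variance trend, other thresholds and leaving out each array in turn. Genes named are AHK3, ACT2, the 12 highest and the 12 lowest differences past the threshold with non-overlapping arrays, up to 4 genes per list with the smallest adjusted p, all type-A response regulators and the neighbouring genes that differed at 0 and 3 DAT. A gene that this rule names is not reported here. Others are named to complete a list, to show members that did not pass, or to define a tissue, and were chosen after their values were seen. Members and lists were chosen with earlier results of these data known. From the lists, 10 loci that the reference table does not name were left out. Names came from RefSeq's TAIR10.1 table, which matched 31993 genes, and no sequences were used. The file names place the 12 arrays of a replicate number on 1 slide.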

Additional observations from a re-analysis of the deposited data

Results flagged for a closer look

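For 22 of the 24 genes with the highest or lowest differences, the change from 0 to 3 DAT differed between ahk3/ore12 and Col in limma's interaction test (FDR under 0.05 over all genes). This change was higher in ahk3/ore12 by 5.79 for GASA6, 5.42 for ARR6, 4.91 for AT5G11420, 4.78 for AT5G16030, 4.76 for SHY2, 4.37 for BEE1, 4.2 for AT5G62280, 4.19 for ARR5, 4.11 for ARR7, 3.85 for AT3G55900 and 3.65 for AT3G55910. It was lower in ahk3/ore12, with differences of -6.88 for SAG12, -5.74 for SAG29/SWEET15, -4.28 for PAP20, -4.15 for AT5G46960, -4.0 for AT5G55410, -3.89 for CYP76G1, -3.85 for AT3G05400, -3.79 for AtS40-3, -3.68 for CSLG2, -3.60 for AT2G45040 and -3.49 for AT4G18425. These genes were picked for their difference at 3 DAT, which enters the interaction, so the list is a description. Groups of 2 arrays are below the 4 samples that the check for a single deviating sample takes, so it was not made.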

How the results depend on the processing

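The number of genes that differed at 3 DAT was 7544. It was 4836 in a fit of the 6 arrays of 3 DAT alone, 4518 at an FDR under 0.01 and 2423 with a difference of at least 1 in addition. In the other analyses that kept all 4 arrays it lay within 1.5 times. With 1 of the 4 arrays left out it ranged from 4120 to 6133. The number at 0 DAT was 8, and 7 to 15 with an array left out. The number for the change from 0 to 3 DAT was 4340, and 2307 to 4107 with an array left out. Fits that dropped ein2/ore3 replicate 2 of 2 DAT, whose lowest intensity was below that of all other arrays, were added after seeing the data and gave 8416, 8 and 4839.

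With the replicate number as a block, 9112 genes differed at 3 DAT, 9 at 0 DAT and 5972 in their change. Replicate numbers share a slide. Deviations of same-numbered arrays correlated above 0.1 in 47 of 66 pairs of groups and under -0.1 in 2. The median correlation was 0.302, and it was 0.409 for the 2 groups compared here. The main fit was set without the block, so its counts leave out a deviation that most pairs of groups shared. The blocked counts stand beside them for this reason.

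Of 106 named genes past the threshold, 91 kept their call in every analysis, among them 23 of the 24 leading genes. None changed sign with a call. In some analyses other than leaving out an array, 9 lost theirs. Most named genes were picked for a large difference or a small adjusted p in these same data. The share that kept its call therefore does not stand for all called genes. With the 6 arrays of 3 DAT, 10 cytosolic ribosomal protein genes were called in place of 23, and 6 autophagy genes in place of 11. In the fit of the 4 arrays compared, 7 NAC and WRKY factors were called lower in place of 4, and with the block 6 abscisic acid genes in place of 2. A group reduced to 1 array was assumed to vary like the other groups.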

Other observations

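Gene families picked by symbol after the differences had been seen are described here by their counts, with no test of the family. Over all genes 14.8% were higher and 8.36% lower. The higher shares of GATA factors (22.7%) and XTH enzymes (16.7%) were not far from 14.8%. All 3 BEE genes, bHLH factors induced by brassinosteroid, were higher in ahk3/ore12 at 3 DAT, and BEE2 was at 13.17 and 13.30 in ahk3/ore12, against 9.70 and 9.36 in Col (3.71 ± 0.19). Of 27 Aux/IAA genes, repressors of auxin signalling, 13 were higher and none lower, with IAA29 at 10.51 and 11.38 in ahk3/ore12, against 7.24 and 7.53 in Col. Among 20 genes of the plastid transcription complex and sigma factors, 12 were higher, the highest being PTAC16 (2.87 ± 0.22), while 7 were called without Col replicate 1 and 9 or 10 without another of the 4 arrays. Of 8 plastid chaperonin genes 6 were higher, among them CPN60B (1.27 ± 0.17), and 4 without either Col replicate 1 or ahk3/ore12 replicate 2. Of 8 protein arginine methyltransferases 7 were higher, with PRMT3 higher by 1.19 ± 0.18. Of 15 tubulin genes 6 were higher (3 without Col replicate 1 or ahk3/ore12 replicate 2), and of 22 GATA factors 5 (3 without ahk3/ore12 replicate 1).

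MIR172a, the transcript of a microRNA locus of the ageing pathway, was at 10.96 and 11.15 in ahk3/ore12, against 7.19 and 7.5 in Col (3.71 ± 0.25, adjusted p = 2.74e-07). It was near the bottom of the scale at 0 DAT, at 5.07 and 4.99 in ahk3/ore12 and at 4.99 and 5.09 in Col. The other 4 miR172 loci on the array did not pass. Of 16 SPL factors, which promote the adult phase, 7 were higher, while the family median was -0.03. SPL4 was at 10.92 and 11.25 in ahk3/ore12, against 8.72 and 9.32 in Col.

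In the other direction, 8 of 13 succinate dehydrogenase genes were lower, down to -1.08 for AT3G47833, and 5 of 12 JAZ genes were lower with 1 higher. Without Col replicate 1 or ahk3/ore12 replicate 2 these lower counts were 3 and 1, and 4 succinate dehydrogenase genes were lower without Col replicate 2 and 5 without ahk3/ore12 replicate 1. The higher JAZ call was lost without replicate 2 of either genotype. Of 30 XTH cell wall enzymes, 5 were higher and 5 lower, from 2.88 for XTH15 to -3.80 for XTH29, and 2 (without Col replicate 1) or 3 (without another of the 4) were lower with an array left out. Of 87 genes encoded in the chloroplast, 4 (4.6%) were higher and 1 (1.15%) lower (median 0.04), and none was called without any 1 of the 4 arrays. Of 107 genes encoded in mitochondria, 5 (4.67%) were lower (median -0.41), and their median at 0 DAT was 0.36. Without Col replicate 1 there were 2, without Col replicate 2 or ahk3/ore12 replicate 1 there was 1, and without ahk3/ore12 replicate 2 none. Over all genes 14.8% were higher and 8.36% lower, so the called shares of both organellar sets lie below these. Of the 107 mitochondrial genes, however, both ahk3/ore12 arrays lay below both Col arrays in 90 and above in 3. Over all genes they lay below in 39.6% and above in 29.2%. From 0 to 3 DAT the mitochondrial median changed by 0.02 in ahk3/ore12 and by 0.84 in Col.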
